A study of Drosophila melanogaster with 4 samples.

Results

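The cytosolic ribosomal proteins of Drosophila melanogaster were followed in RNA-seq of larval salivary glands with and without the chromosomal kinase JIL-1. The members are all genes of the count table whose symbol starts with RpL, RpS or RpLP followed by a digit, together with sta, the gene of the small subunit protein SA. These are 86 of the 9931 genes in the table, 51 of the large subunit and 35 of the small subunit, and all 86 passed the filter on low counts, as did 7958 genes in all.

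Total RNA came from salivary glands of last-stage (3rd instar) larvae kept at 25 °C, in 2 libraries of wild type and 2 libraries of the JIL-1 null mutant Z2, whose genotype is given as JIL-1-/-. The labels name no strain, sex or number of larvae for either genotype and leave unstated whether libraries 1 and 2 are separate dissections, so p-values measure the spread between these libraries, which may be technical. Any difference in strain background between wild type and mutant has the same split as the genotype and cannot be told apart from it. JIL-1 phosphorylates histone H3 and is found mainly at interbands of polytene chromosomes. The salivary gland is a secretory organ of large polytene cells that makes glue protein late in larval life.

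A ribosome takes 1 copy of nearly every ribosomal protein, so the proteins are needed in matched amounts, and flies with only 1 working copy of many of these genes show the Minute phenotype of slow development and short, thin bristles. The large subunit forms peptide bonds and carries the stalk that recruits translation factors, while the small subunit reads the messenger RNA. Most of the proteins are encoded by a single gene in Drosophila, and a few have a second copy, some of them known for expression in the germ line.

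The libraries held 6222322 and 8496047 counts in wild type and 8071769 and 11369094 counts in JIL-1 null glands, and single members held between 47 and 29333 counts in a library. JIL-1 itself had 93.4 and 77.0 CPM (counts relative to library size, scaled with TMM factors) in the wild-type libraries and 55.5 and 55.8 CPM in the mutant libraries. Its log2 fold change, mutant over wild type as everywhere below, was -0.61 ± 0.12 (SE; edgeR quasi-likelihood test, adjusted p = 0.0147, between 0.00316 and 0.121 over 11 alternative settings), and gene counts do not show which part of the transcript the reads cover. All 8 gland markers were present, with summed levels of 262639 and 319042 CPM in wild type and 307278 and 287302 CPM in mutant glands, and 1 of them, sage, was called lower. The 6 fat body markers summed to 57200 and 68103 CPM in wild type and to 34499 and 33609 CPM in the mutant, and 4 of them were called lower (17.2% of all genes tested were). The midgut list of 6 genes went from 65.0 and 218 CPM to 11.2 and 11.2 CPM, and all 4 of its tested genes were called lower. Of these, LysD had 1.88 and 76.3 CPM in wild type and epsilonTry 1.88 and 18.5 CPM. Neither was called by limma-voom (adjusted p = 0.434 and 0.218). The other midgut genes, Amy-p and Amy-d, were too low to test. Amy-p had 0 and 0 counts in wild type and 3 and 6 in the mutant, and Amy-d had 1 and 0 counts in wild type and 5 and 5 in the mutant. The 6 muscle genes summed to 111 and 54.4 CPM in wild type and 53.8 and 43.2 CPM in the mutant, and 1 of them was called lower. The 5 haemocyte genes summed to 8.61 and 5.19 CPM in wild type and 0.989 and 1.18 CPM in the mutant, and the 1 gene tested was called lower. The part of these differences in the results below was not tested, and in bulk RNA fewer cells of a type and less RNA per cell cannot be told apart.

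Ribosomal protein genes took a larger share of the reads in JIL-1 null glands. They made up 8.42% and 8.79% of the counts of the wild-type libraries and 10.2% and 10.5% of those of the mutant libraries. The genotypes did not overlap, and the difference of 1.74 percentage points, from 8.6% ± 0.266 to 10.3% ± 0.152 (SD, n = 2), was several times the SD. An exact two-sided permutation test gave p = 0.333, the smallest value that 2 libraries against 2 allow. The glue genes took 35.2% and 37.6% of the wild-type counts and 37.3% and 36.4% of the mutant counts. With 7 glue genes left out of the totals, the ribosomal protein share was 13.0% and 14.1% in wild type and 16.3% and 16.4% in the mutant. No 95% Wilson interval of a library's share was wider than 0.0375 points on either side, which covers counting error only.

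Both subunits shared in the higher level. Large subunit genes held 4.88% and 5.1% of the wild-type counts and 5.87% and 6.0% of the mutant counts, and small subunit genes held 3.53% and 3.7% against 4.37% and 4.45%. The ratio of large to small subunit counts, which does not depend on scaling between libraries, was 1.381 and 1.378 in wild type and 1.341 and 1.348 in the mutant. The ratio was lower in both mutant libraries, by 0.0354 against SDs of 0.00197 and 0.00466 (n = 2; exact two-sided permutation test, p = 0.333, the smallest possible). It was lower by 0.0478 when the most abundant member of each subunit was left out.

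**Figure D1:**
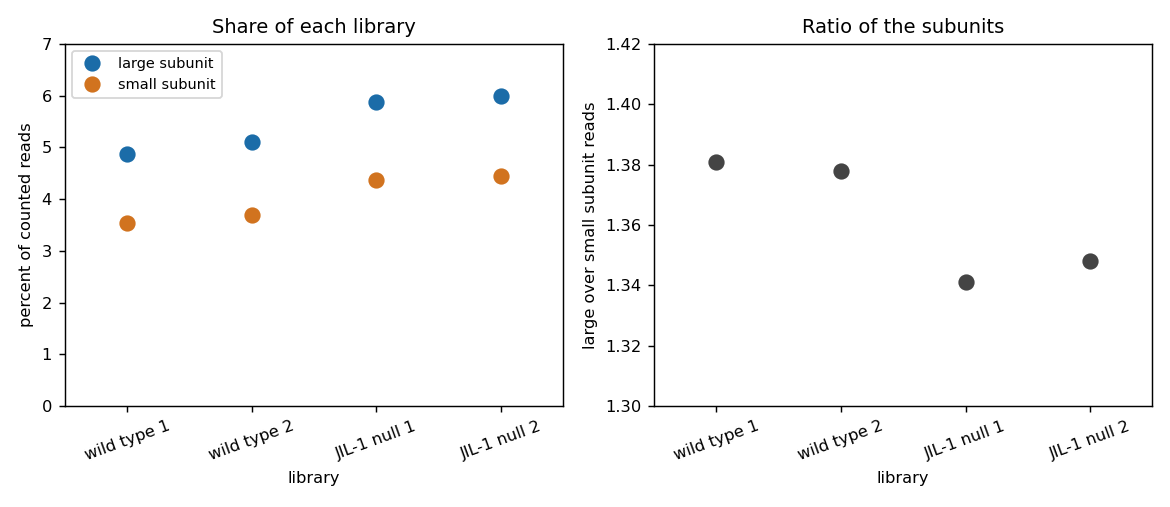
Left, share of each library's counts in large and in small subunit genes, in percent, and right, the ratio of large to small subunit counts on an axis that does not start at 0, with 1 point for each of the 4 libraries. The mutant libraries lie at 5.87% and 6.0% for the large subunit, above the wild-type libraries at 4.88% and 5.1%, and their subunit ratios of 1.341 and 1.348 lie below the wild-type ratios of 1.381 and 1.378.

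Across single genes the difference was small and similar in size. The median log2 fold change of the 86 members was 0.20, a fold of 1.15, against 0.03 over all 7958 genes tested, and 79 members (91.9%) had a value above 0, against 52.6% of all genes. The interquartile range was 0.22 on the log2 scale for the members and 0.76 for all genes. Both mutant libraries lay above both wild-type libraries in 61 members (70.9%), and the background for this was 37.2% of all genes. They lay below both in 3 members, RpS14b, RpS15Ab and RpL23A, against 33.1% of all genes, and the genotypes overlapped in the other 22 members.

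The large and small subunit genes had almost the same median log2 fold change, 0.19 and 0.20. Values above 0 were found for 46 of the 51 large subunit genes and 33 of the 35 small subunit genes. The mutant libraries lay above both wild-type libraries in 36 large subunit genes and in 25 small subunit genes.

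**Figure D2:**
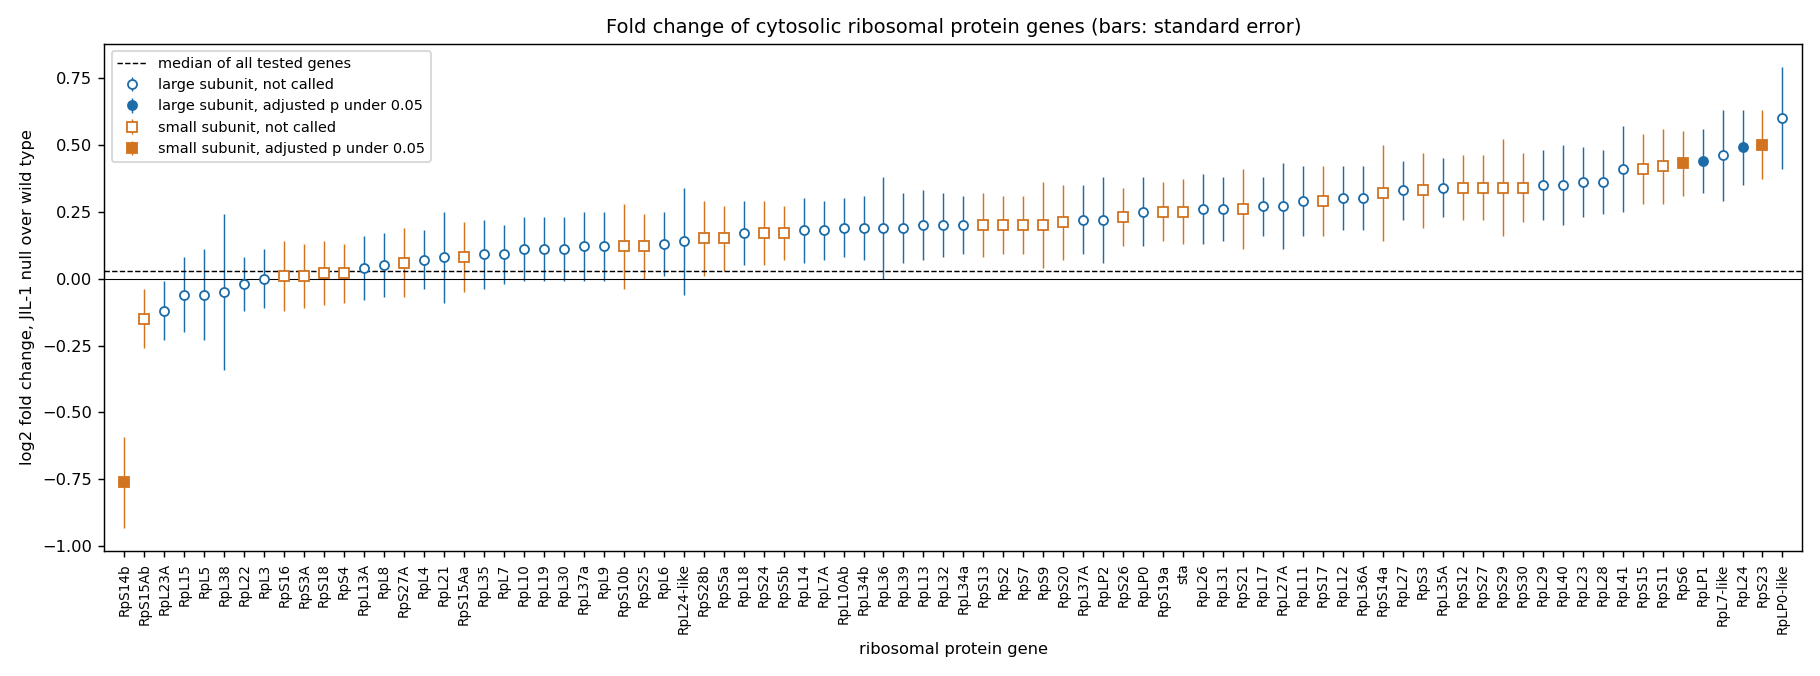
Log2 fold change of JIL-1 null over wild type with its SE (bars) for 84 of the ribosomal protein genes, ordered by value, with circles for the large and squares for the small subunit, filled where called, and the median of all tested genes as a dashed line. Most genes lie just above 0 around the members' median of 0.20, and RpS14b stands lowest at -0.76.

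The spread between the wild-type libraries was of the same size as this shift on the TMM scale. Wild-type library 2 was above wild-type library 1 in 81 of the 86 members, with a median log2 ratio of 0.20, while the median over all genes was 0.02. Between the mutant libraries the members' median was -0.02, and 26 members were higher in library 2. The members' median log2 fold change was 0.09 without wild-type library 1 and 0.31 without wild-type library 2, and it was 0.20 and 0.19 without mutant library 1 or 2. On the TMM scale most members thus moved in 1 direction between the wild-type libraries, as they did between the genotypes. The TMM factors were 1.028 and 0.931 for the wild-type libraries and 1.003 and 1.042 for the mutant libraries. In the raw shares, which do not use these factors, the wild-type libraries lay closer together, at 8.42% and 8.79% against 10.2% and 10.5% in the mutant.

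Few members passed the test one by one. Of the 86 members, 6 were called higher and 1 lower at an adjusted p under 0.05 (8.14%), below the 30.7% of all genes that were called, of which 13.5% were higher and 17.2% lower. Before adjustment, 21 of the 86 members were higher and 1 was lower at p under 0.05. Of all 7958 genes, 1665 (20.9%) were higher and 1818 (22.8%) lower. The members were thus near the background on the higher side and below it on the lower side. The large subunit gave 3 higher calls and the small subunit 3 higher and 1 lower. With upper quartile factors, which moved the median of all genes to 0.17, 33 members were called higher and 1 lower (background 21.2% and 14.5%, 35.7% in all), and the members' median less that of all genes was 0.17 under both scalings. DESeq2 called 9 members higher and 1 lower (background 7.38% and 15.1%, 22.4% in all). Without mutant library 1 or mutant library 2 edgeR called 0 members at an adjusted p under 0.05, and 11.1% and 8.72% of all genes were called.

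Of the large subunit genes called higher, RpL24 and RpLP1 are described here. RpL24, a protein that makes a bridge to the small subunit, had 606 and 758 CPM in wild type and 976 and 938 CPM in the mutant. RpLP1, an acidic protein of the stalk, had 1429 and 1553 CPM in wild type and 2074 and 1959.5 CPM in the mutant. Their genotypes did not overlap, and the log2 fold changes were 0.49 ± 0.14 and 0.44 ± 0.12 (edgeR adjusted p = 0.0454 and 0.0383).

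Of the small subunit genes called higher, RpS23, a protein of the decoding centre, had 1223 and 1431 CPM in wild type and 1909 and 1855 CPM in the mutant. RpS6, the protein phosphorylated by S6 kinase downstream of TOR, had 1045 and 1137 CPM in wild type and 1478 and 1471 CPM in the mutant. In RpS23 and RpS6 both mutant libraries were above both wild-type libraries, with log2 fold changes of 0.50 ± 0.13 and 0.43 ± 0.12 (edgeR adjusted p = 0.0317 and 0.0349). RpL24, RpLP1, RpS23 and RpS6 each held their call under 8 of 11 alternatives. These calls were lost without either mutant library (edgeR adjusted p between 0.222 and 0.292) and with the replicate number as a block (edgeR adjusted p = 0.0619, 0.0903, 0.0602 and 0.079).

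RpS14b was the only member called lower. It had 212 and 295 CPM in wild type and 146 and 153 CPM in the mutant, with both mutant libraries below both wild-type libraries. The log2 fold change was -0.76 ± 0.17 (edgeR adjusted p = 0.0201), and the call held under 9 of 11 alternatives, not without either mutant library (edgeR adjusted p = 0.126 and 0.122).

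**Figure D3:**
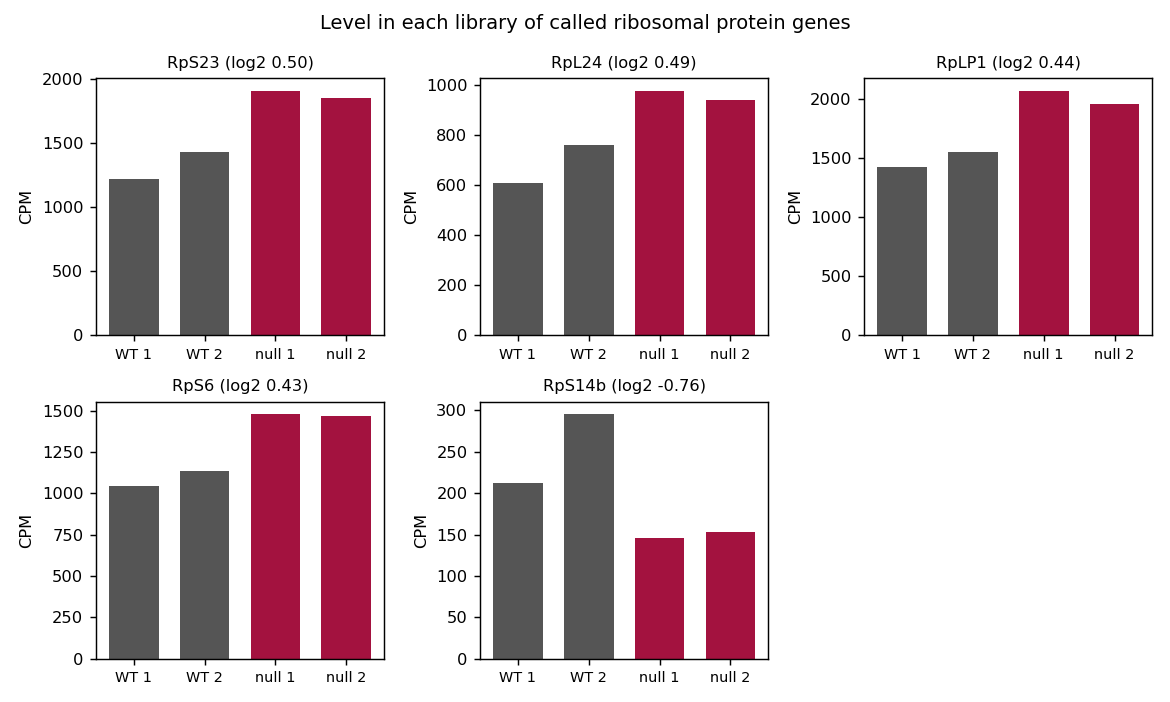
CPM of 5 called ribosomal protein genes in each of the 4 libraries, with 1 column per library and 1 panel per gene. In RpL24, RpLP1, RpS23 and RpS6 both JIL-1 null libraries lie above both wild-type libraries, and in RpS14b the libraries at 146 and 153 CPM lie below those at 212 and 295 CPM.

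The members just outside the threshold were RpL35A, with a log2 fold change of 0.34 ± 0.11 (edgeR adjusted p = 0.0543), and RpLP0-like, with 0.60 ± 0.19 (edgeR adjusted p = 0.0586). RpL24, with an adjusted p of 0.0454, was the member just inside it.

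The genes in the next paragraphs on the stalk, ribosomal RNA binding and ubiquitin fusions were chosen by their roles after their values were seen. The stalk is built from RpLP0, which binds ribosomal RNA, and pairs of RpLP1 and RpLP2. RpLP0 had 1299.5 and 1503 CPM in wild type and 1625 and 1704 CPM in the mutant, without overlap. RpLP2 had 951 and 1268 CPM in wild type and 1294 and 1290 CPM in the mutant. Only RpLP1 of these passed the test, and the log2 fold changes of RpLP0 and RpLP2 were 0.25 ± 0.13 and 0.22 ± 0.16 (edgeR adjusted p = 0.186 and 0.341). The differences between the stalk genes were not tested.

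RpL5 and RpL11 bind the 5S ribosomal RNA together before it joins the large subunit. RpL5 had 1786 and 2442 CPM in wild type and 2049 and 2011 CPM in the mutant. RpL11 had 950 and 1106 CPM in wild type and 1282 and 1233 CPM in the mutant. The mutant values of RpL5 lay between the wild-type values, while those of RpL11 lay above both, and neither gene was called (log2 fold changes -0.06 ± 0.17 and 0.29 ± 0.13, edgeR adjusted p = 0.822 and 0.132).

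RpL40 and RpS27A are made as fusions with ubiquitin, and RpS30 as a fusion with a ubiquitin-like protein. RpL40 had 881 and 1122 CPM in wild type and 1264 and 1284 CPM in the mutant. RpS27A had 1167 and 1357 CPM in wild type and 1323 and 1303 CPM in the mutant. RpS30 had 762 and 921 CPM in wild type and 1081 and 1056 CPM in the mutant. The genotypes overlapped in RpS27A alone of these, and none was called (log2 fold changes 0.35 ± 0.15, 0.06 ± 0.13 and 0.34 ± 0.13, edgeR adjusted p = 0.125, 0.761 and 0.0998).

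RpL32, also known as rp49 and widely used as a reference gene in Drosophila, had 840.4 and 940.1 CPM in wild type and 1027 and 1014 CPM in the mutant. Both mutant libraries were higher, with a log2 fold change of 0.20 ± 0.12, equal to the members' median (edgeR adjusted p = 0.246). RpL3, a protein near the peptidyl transferase centre, differed little, with 2116 and 2152 CPM in wild type and 2135 and 2135 CPM in the mutant. The gene sta had 1323 and 1493 CPM in wild type and 1667 and 1681 CPM in the mutant, with a log2 fold change of 0.25 ± 0.12 (edgeR adjusted p = 0.167). RpL32, RpL3 and sta were likewise picked with their values known.

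The least reproducible member was RpL38, a small protein of the large subunit. It had 183 and 359.7 CPM in the wild-type libraries and 252 and 272 CPM in the mutant libraries, so that the mutant values fell inside the wild-type range. The log2 fold change of -0.05 ± 0.29 was not called (edgeR adjusted p = 0.911). It became 0.51 without wild-type library 2 (edgeR adjusted p = 0.0218) and was called lower without wild-type library 1, at -0.46 (edgeR adjusted p = 0.0214). Without wild-type library 1, RpL5 was called lower too, at -0.27 (edgeR adjusted p = 0.0476).

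The members lie on all major chromosome arms. Their median log2 fold change was 0.15 for the 15 genes on X and 0.20 for the 71 genes on the autosomes, and the medians of all genes there were 0.02 and 0.03. By arm, the medians were 0.21 on 2L, 0.29 on 2R, 0.18 on 3L and 0.20 on 3R, each with between 14 and 19 members. The calls were spread as 1 higher and 1 lower on X, 2 higher on 2L, 2 higher on 2R and 1 higher on 3R, and none fell on 3L. Of all genes tested, 25.0% were called on X, 33.1% on 2L, 31.4% on 2R, 32.1% on 3L and 30.7% on 3R, in either direction. RpS3A, the only member on chromosome 4, had 2412 and 2593 CPM in wild type and 2573 and 2478 CPM in the mutant, a log2 fold change of 0.01 ± 0.12 (edgeR adjusted p = 0.947), where the median of the 64 genes tested on that chromosome was -0.26. RpL5, RpL15 and RpL38 are known to lie in pericentric heterochromatin, and this trio was picked after its values were seen. RpL15 had 1101 and 1349 CPM in wild type and 1206 and 1149 CPM in the mutant, and its log2 fold change was -0.06 ± 0.14 (edgeR adjusted p = 0.782). In each of RpL5, RpL15 and RpL38 both mutant libraries fell between the wild-type libraries. The same held for members outside this trio, among them RpL3, RpL35, RpL36, RpS3A, RpS15Aa, RpS18 and RpS27A. The genotypes overlapped in 22 of the 86 members, and the share of all genes with mutant libraries between the wild-type libraries was not counted.

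Levels were compared between genes per kilobase of exon. The members' mean wild-type level ran from 8.75 to 4132 CPM per kilobase, with quartiles at 825, 1114 and 1412, so most members lay within a narrow band. The medians of the large and small subunit genes were 1109 and 1142 CPM per kilobase in wild type and 1209 and 1353 in the mutant. RpL41, a very short protein, had the highest level at 4132 CPM per kilobase in wild type and 5479 in the mutant, followed in wild type by RpS18 at 2371. Per the authors' deposited RPKM, the most abundant genes were RpL41, RpL23, RpL39, RpL14 and RpL40 of the large subunit and RpS16, RpS27A and RpS28b of the small subunit. RpL23 stood at 1909 CPM per kilobase in wild type and 2445 in the mutant, RpL14 at 1589.5 and 1799, RpL39 at 1754 and 1999, and RpS28b at 1102 and 1226. RpS16 stood at 1805 and 1819.7 CPM per kilobase. None of these 8 genes was called, and their log2 fold changes ran from 0.01 for RpS16 to 0.41 for RpL41. The lowest wild-type levels were 8.75 for RpLP0-like, 9.3 for RpL7-like and 58.9 for RpL24-like, followed by the second copies RpL34a at 123 and RpS5b at 125. Of the genes with no second copy in the table, RpL38 at 268 and RpL22 at 360.3 CPM per kilobase were low. The RpL38 level depends on the length used, 1013 bases of exon here against 404 bases implied by the deposited RPKM. The deposited wild-type RPKM of RpL38 was 646, beside a median of 665 for the members. Across the 86 members the log2 fold change had a Spearman correlation of -0.19 with exon length and of -0.26 with the wild-type CPM, given as a description of genes that share the same 4 libraries.

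Members were paired by symbol, written with a and b or with -like, which gave 7 pairs. The share of the minor member within a pair does not depend on scaling between libraries. RpS14a and RpS14b encode the same small subunit protein from neighbouring genes on the X chromosome. RpS14b made up 27.8% and 27.5% of the pair's counts in wild type and 15.4% and 15.1% in the mutant. The share fell by 12.4 percentage points, from 27.7% ± 0.177 to 15.3% ± 0.205 (SD, n = 2), and the 95% Wilson intervals ran from 26.6% to 29.1% in wild type and from 14.5% to 16.2% in the mutant. This is far more than the spread between libraries, and the exact two-sided permutation p was 0.333, the smallest possible, or 0.466 adjusted over the 7 pairs.

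The partner RpS14a had 551 and 775 CPM in wild type and 799.9 and 859 CPM in the mutant, a log2 fold change of 0.32 ± 0.18 (edgeR adjusted p = 0.214). The sum of RpS14a and RpS14b was 763 and 1069 CPM in wild type and 946 and 1012 CPM in the mutant, so the sums overlapped. Per kilobase, RpS14a stood 1.78-fold above RpS14b in wild type and 3.78-fold in the mutant. Near-identical copies can share reads, and how the counts were divided between them is not given in the sources used here, so the values of RpS14a and RpS14b, and likewise those of RpS15Aa and RpS15Ab, are uncertain.

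RpS15Ab, the second copy of another small subunit protein, took 17.4% and 16.4% of its pair in wild type and 14.4% and 15.3% in the mutant. Both mutant shares were lower, by 2.07 points on average (exact two-sided permutation p = 0.333, adjusted 0.466). Neither copy was called, with log2 fold changes of -0.15 ± 0.11 for RpS15Ab and 0.08 ± 0.13 for RpS15Aa (edgeR adjusted p = 0.346 and 0.702).

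The shares of RpS5b and RpL34a overlapped between genotypes. RpS5b, a copy known for its role in the ovary, took 11.2% and 11.2% of its pair in wild type and 10.9% and 11.8% in the mutant. RpL34a took 11.3% and 11.1% of its pair with RpL34b in wild type and 11.0% and 11.6% in the mutant. The mean differences were 0.136 and 0.0989 points (exact two-sided permutation test, p = 1.0 for each). The log2 fold changes were 0.17 ± 0.10 for RpS5b and 0.15 ± 0.12 for RpS5a, and 0.20 ± 0.11 for RpL34a and 0.19 ± 0.12 for RpL34b, and none was called. Of the ovary and germ line markers beside which RpS5b is read, 7 of 10 were matched to a gene by name. They summed to 4.38 and 5.19 CPM in wild type and to 8.53 and 11.7 CPM in the mutant, without overlap. The sums include the yolk protein genes Yp1, Yp2 and Yp3. These had 0.313, 0.313 and 0.783 CPM in wild-type library 1 and 0.127, 0.759 and 1.39 CPM in wild-type library 2. Their levels were 0.865, 0.865 and 1.11 CPM in mutant library 1 and 2.28, 2.96 and 2.03 CPM in mutant library 2. Of the 7 markers, 2 were tested and neither was called, and osk had 0 and 0 counts in wild type and 1 and 5 in the mutant. The part of these marker levels in the RpS5b values was not tested. Of the testis markers, 5 of 12 were matched to a gene by name, and they summed to between 2.97 and 4.31 CPM.

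The genes named -like were rare beside their partners. They were paired by symbol only, and whether they act as second copies in the ribosome was not tested. RpL7-like took 1.43% and 1.05% of its pair in wild type and 1.69% and 1.52% in the mutant. RpLP0-like took 0.563% and 0.611% in wild type and 0.71% and 0.787% in the mutant. RpL24-like, known in yeast as the assembly factor Rlp24, took 5.56% and 6.8% in wild type and 4.98% and 5.05% in the mutant. The shares of RpL7-like and RpLP0-like were higher and that of RpL24-like lower in both mutant libraries (exact two-sided permutation p = 0.333, adjusted 0.466, for each). RpL7-like went from 18.8 and 14.6 CPM to 23.9 and 22.1 CPM, and RpLP0-like from 7.36 and 9.24 CPM to 11.6 and 13.5 CPM. RpL24-like went from 35.7 and 55.3 CPM to 51.2 and 49.8 CPM. The log2 fold changes were 0.46 ± 0.17, 0.60 ± 0.19 and 0.14 ± 0.20, and none was called (edgeR adjusted p = 0.0908, 0.0586 and 0.618).

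**Figure D4:**
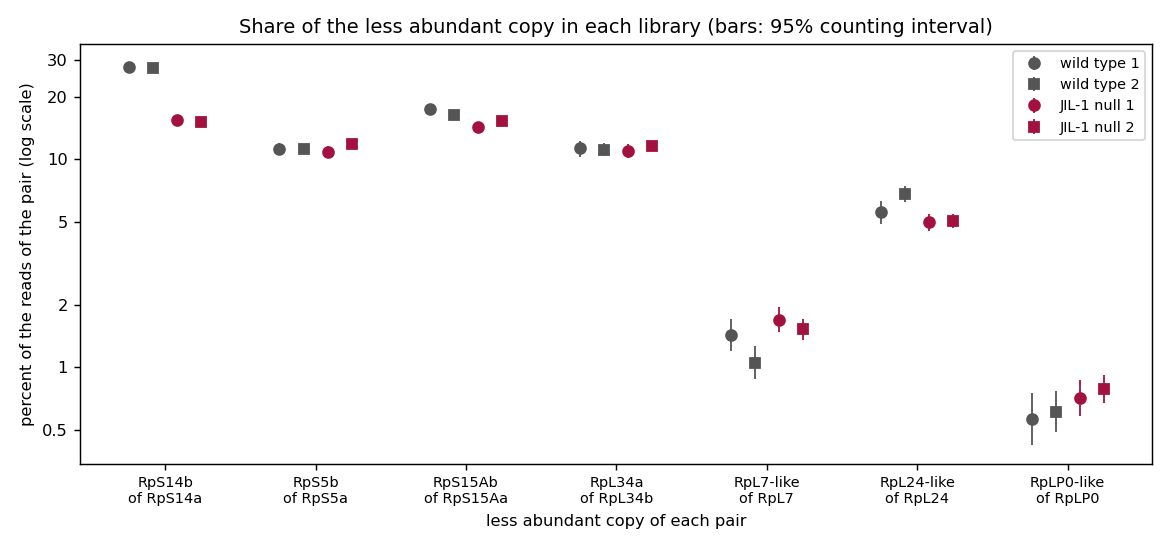
Share of the minor member in the counts of each of the 7 pairs made by symbol, in percent on a log axis. Each of the 4 libraries is shown, with 95% counting intervals as bars. RpS14b lies at 27.8% and 27.5% in wild type and at 15.4% and 15.1% in JIL-1 null glands, while RpS5b and RpL34a overlap between the genotypes.

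Mitochondrial ribosomal proteins, which build the ribosome inside mitochondria, are encoded by a separate set of nuclear genes. Of the 71 tested, 22 were called higher and 2 lower (background 13.5% and 17.2%), which is 33.8% in all against 30.7% of all genes. The median log2 fold change of the 71 was 0.56, and 64 had a value above 0. mRpL37 rose from 4.7 and 4.05 CPM to 10.9 and 12.3 CPM, and mRpS9 from 21.4 and 21.1 CPM to 35.0 and 37.6 CPM. mRpS5 fell from 13.5 and 16.7 CPM to 6.06 and 5.91 CPM, and mRpL39 fell from 16.1 and 17.2 CPM to 6.8 and 8.79 CPM. The log2 fold changes were 1.41 ± 0.19, 0.77 ± 0.11, -1.34 ± 0.18 and -1.09 ± 0.19 (edgeR adjusted p = 0.0036, 0.00503, 0.00389 and 0.00848). Wild-type library 2 was not raised over library 1 in this set, where the median log2 ratio was -0.03. DESeq2 called 7 higher and 2 lower (background 7.38% and 15.1%), which is 12.7% in all against 22.4% of all genes. The median of the cytosolic set was 0.20, and the difference between the sets was not tested.

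Genes that make and assemble ribosomes, with nucleolar proteins, RNA polymerase I subunits and assembly factors, gave 14 higher calls and 1 lower among the 42 tested. The background was 13.5% higher and 17.2% lower, and in all 35.7% of the set was called against 30.7% of all genes. The median log2 fold change of the 42 genes was 0.65, and 41 had a value above 0. When wild-type library 2 was left out, their median fell to 0.43, with 37 genes above 0. CG4364, the pescadillo homologue needed for large subunit assembly, rose from 37.7 and 42.4 CPM to 61.7 and 59.5 CPM. CG4038, the Gar1 homologue of the RNA pseudouridylation complex, rose from 5.01 and 4.43 CPM to 8.78 and 10.6 CPM, and the nucleolar GTPase ns2 rose from 16.1 and 13.9 CPM to 27.2 and 24.5 CPM. The nucleolar protein gene wcd fell from 15.0 and 14.6 CPM to 7.17 and 10.3 CPM. The log2 fold changes were 0.59 ± 0.10, 1.05 ± 0.20, 0.78 ± 0.15 and -0.74 ± 0.21 (edgeR adjusted p = 0.00924, 0.0123, 0.0138 and 0.0425). In wild type the median log2 ratio of library 2 over library 1 was -0.28 for these genes, with 6 of 42 above 0, the opposite side from the cytosolic ribosomal proteins. DESeq2 called 2 of them higher (4.76%) and 0 lower, where it called 7.38% of all genes higher and 15.1% lower. The fall of wcd held under 3 of 11 alternatives.

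**Figure D5:**
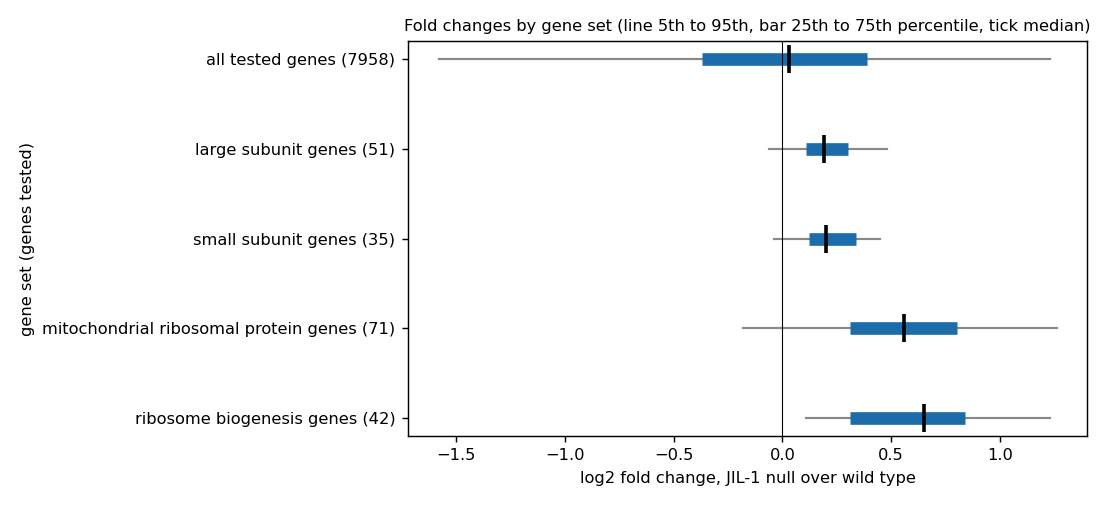
Log2 fold changes of JIL-1 null over wild type for all tested genes, the large and small subunit genes, the mitochondrial ribosomal protein genes and the ribosome biogenesis genes, with the median as a tick, the 25th to 75th percentile as a thick bar and the 5th to 95th percentile as a line. The medians are 0.03 for all genes, 0.19 and 0.20 for the subunits, 0.56 for the mitochondrial set and 0.65 for the biogenesis set, and the cytosolic genes show the narrowest spread.

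Of 9 genes for factors known to act on ribosomal protein genes or their messenger RNAs, 3 were called higher and 2 lower (the background is 13.5% higher and 17.2% lower). The gene dm, which encodes Myc, rose from 18.5 and 12.4 CPM to 34.7 and 37.8 CPM, and Max, its binding partner, rose from 18.5 and 19.1 CPM to 35.1 and 31.7 CPM. The gene larp, whose mammalian counterpart binds messenger RNAs of ribosomal proteins, rose from 39.4 and 36.5 CPM to 67.1 and 64.2 CPM. Thor, the 4E-BP inhibitor of translation initiation, fell from 1499.7 and 1588 CPM to 626 and 686 CPM. CG9797, which encodes the promoter-binding protein M1BP, fell from 45.7 and 44.9 CPM to 33.9 and 34.6 CPM. None of these groups overlapped, and the log2 fold changes were 1.24 ± 0.20 for dm, 0.83 ± 0.12 for Max, 0.79 ± 0.10 for larp, -1.23 ± 0.12 for Thor and -0.40 ± 0.09 for CG9797 (edgeR adjusted p = 0.00686, 0.00563, 0.00296, 0.00124 and 0.0232). CG9797 held its call under 6 of 11 alternatives. The genes Mnt, S6k, Dref and Trf2 were not called, with log2 fold changes of -0.30 ± 0.10, 0.15 ± 0.09, 0.21 ± 0.17 and -0.05 ± 0.12.

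In the authors' deposited table, 52 of the 86 members had a false discovery rate under 0.05 with a higher level and 1 with a lower level, where the background over all genes was 22.6% and 15.1%. In the authors' deposited table the median fold of the members was 1.25 and that of all genes 1.1, and 83 members had a fold above 1. The 7 members called by edgeR were also called there in the same direction. The test behind that table is not given in the sources used here. The deposited false discovery rate can lie below its own p-value, as for RpL36 with 0.117 against 0.149, and its highest value was 0.425. It is therefore not a Benjamini-Hochberg value, and 0.05 on it is not the same threshold as 0.05 on the edgeR adjusted p.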

How the data were processed

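One deposited table of RNA-seq from 4 libraries was used, with the samples grouped by the labels. Per the submitters' processing notes, reads were aligned with GSNAP and the builds named are BDGP5 and dm3; the sources used here give no versions, counter, annotation, strand setting or treatment of reads with several matches. Raw counts per gene were taken unchanged from the deposited table. Per the file headers, the table also holds the authors' RPKM per genotype, their fold (a ratio of the genotypes), p-value and false discovery rate, which were used only to describe the authors' comparison and to rank abundance. The deposited RPKM used a length closer to the summed transcript lengths than to the exon length (within 10% of it for 61.7% against 27.8% of 2424 genes), which lowers genes with several transcripts, so levels between genes were computed from counts and exon lengths of the Ensembl release 115 annotation. That annotation is of another build, so no coordinates are given; 81 members matched by identifier and 5 by symbol.

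Counts were tested with edgeR 4.0.16 (glmQLFit and glmQLFTest, TMM factors, filterByExpr with a minimum count of 10 and total of 15) in R 4.3.3, two-sided, with Benjamini-Hochberg adjustment over 7958 genes and a threshold of 0.05. The SE is the log2 fold change over the square root of F. CPM use the TMM factors, shares use raw counts, and shares and ratios were tested with exact permutation over libraries. The 11 alternatives were upper quartile factors, totals without 7 glue genes, DESeq2 1.42.0, limma-voom (limma 3.58.1), no filter, a mean of at least 5 CPM, the replicate number as a block, and leaving out each library. The totals without glue genes were used without TMM factors, so that setting changes both.

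The members and gene lists were chosen with earlier results of these data known. The genes named by rule were every called member, both copies of each pair, the most abundant members by the authors' RPKM, the members with the most extreme fold changes or the largest gaps between replicates, JIL-1, and the called genes of the other lists with the smallest adjusted p; other genes are said to be chosen after their values were seen. The values of 2 called members are counted in every total but not reported here by gene. Second copies with no row in the table were not analysed here.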

Additional observations from a re-analysis of the deposited data

How the results depend on the processing

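With upper quartile factors the calls were 1690 higher and 1154 lower over all genes, 33 higher members and 22 higher and 0 lower biogenesis genes, and the median log2 fold changes were 0.34 for the members, 0.33 for the large and 0.34 for the small subunit. Totals without glue genes, used without TMM factors, gave 25 higher members (background 16.6%) and 0 lower biogenesis genes. DESeq2 gave 587 higher genes, 7 higher mitochondrial and 2 higher and 0 lower biogenesis genes, and without the filter 0 biogenesis genes were lower. Replicate numbers do not pair the samples by any label, and the correlation of same-numbered deviations was -0.02 over 7878 genes and 0.36 over the 86 members; with the replicate number as a block 1 member was called higher and 1 lower (RpS14b), against 12.1% and 16.3% of all genes.

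Leaving out 1 library at a time, with a lone sample assumed to vary like the other genotype, gave 195 to 1186 higher and 524 to 1612 lower genes, 0 to 44 higher and 0 to 3 lower members, 0 to 21 higher and 1 to 2 lower mitochondrial genes, and 0 to 19 higher and 0 lower biogenesis genes. Members were called higher in 44 cases without wild-type library 2 (background 10.5%), in 8 without wild-type library 1 (14.3%) and in 0 without either mutant library (3.43% and 2.36%). The difference in ribosomal protein share ranged from 1.56 to 1.93 points. Without mutant library 2 the share differences turned to -0.294 points for RpS5b (range to 0.565) and -0.211 for RpL34a (range to 0.408). Without wild-type library 1 the log2 fold change turned negative for RpL24-like (-0.14), RpS15Aa (-0.06), RpS16 (-0.12) and RpS27A (-0.05), and their highest values over the left-out libraries were 0.50, 0.21, 0.15 and 0.17; RpS16 was -0.02 with DESeq2 and -0.00311 without mutant library 1. RpL38 turned positive with upper quartile factors (0.09), totals without glue genes (0.04), limma-voom (0.03), the block (0.02), and without wild-type library 2 (0.51) or mutant library 1 (0.01), and was lowest without wild-type library 1 (-0.46). The causes were not tested. Of the named genes' other values, 381 kept direction and side of the threshold, 47 lost and 22 gained a call.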
